A study of Mus musculus with 2 samples.

Results

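The genes described here encode the proteins of the mitochondrial ribosome. They were taken by symbol from the annotation of the array: every gene whose symbol is Mrpl or Mrps followed by a number and, in some, a letter. This gave 76 genes of the 18193 that the array names, read by 156 probe sets. Of these, 47 carry an Mrpl symbol (large subunit) and 29 an Mrps symbol (small subunit), and each gene is represented by the probe set that was brightest by mean log2 signal. Mrpl30 and Mrpl53 were read only by probe sets that carry a second gene's symbol and were not analysed here.

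RNA came from whole pancreas of male C57BL/6J mice aged 10 weeks. Between embryonic days 12.5 and 14.5 their mothers had eaten either control or threonine-deficient diet, and all offspring were given control diet after weaning at 3 weeks. Each group was 1 pool of RNA on 1 array, called below the control pool and, for the threonine-deficient diet, the deficient pool, and how many animals were pooled is not stated in the labels. No value therefore has a biological replicate, no test between the diets is possible, and every difference below is between these 2 pools. In whole tissue, fewer cells of a type and less RNA per cell cannot be told apart.

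The mitochondrial ribosome makes the few proteins that mitochondrial DNA encodes, all of them core subunits of the respiratory chain and of ATP synthase. Its ribosomal RNAs come from mitochondrial DNA, but all of its proteins are encoded in the nucleus, made in the cytosol and imported. The large subunit holds the peptidyl transferase centre and the small subunit the decoding centre. Many of the proteins descend from those of bacterial ribosomes, and others were added in the mitochondrial lineage. The symbols do not follow the structure in every case: the products of Mrps30 and Mrps18a sit in the large subunit, and that of Mrps36 belongs to the 2-oxoglutarate dehydrogenase complex.

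Signals were MAS5 intensities, which combine the probes of a probe set and scale each array as a whole, so that a difference in total mRNA cannot be seen. The trimmed mean was equal on the 2 arrays. The 60th percentile of signal was taken on each array, and the higher one, 264.9 units, served as a floor to which lower signals were raised before taking log2, and a ratio with 1 side at the floor is a lower bound. Of all genes, 10758 exceeded this floor in 1 pool or both. These form the background for the counts of log2 ratios below, unless another is named. Percentiles of genes by signal were taken over all genes on the array. Acinar markers were the brightest of the cell type lists, with a summed signal of 1339590 over the 7 listed genes found on the array in the control and 1443660 in the deficient pool. The adipocyte list was lower in 6 of 7 genes, with summed signals of 42706 and 23420, and the islet list in 6 of 6, with 173512 and 142685. No defining marker of these 3 lists lay below the floor on both arrays, and their part in the values of the ribosomal genes was not tested.

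All 76 genes were above the floor, 75 of them on both arrays and Mrps5 in the deficient pool alone. None reached 2-fold between the pools, though the ratio of Mrps5 is a lower bound and its log2 ratio without the floor was 0.99. Over all genes, 1.28% reached 2-fold in the higher direction and 0.874% in the lower one. At 1.5-fold there was 1 member higher, Mrps5, and 1 lower, Mrpl34, each 1.32% of the members, where 7.2% of all genes were higher and 5.36% lower. Within 1.2-fold lay 53 of the 76, or 69.7%, beside 56.6% of all genes. The members' signals were bright for this array, and dim genes scatter more, so these shares are not like for like.

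The signals covered a similar range for both subunits. In the control pool the large subunit genes ran from 473.2 to 5935 units with a median of 1553, and in the deficient pool from 359.3 to 5591 with a median of 1367. The small subunit genes ran from 230.8 to 6440 units with a median of 1582 in the control and from 339.4 to 6286 with a median of 1326 in the other pool. The ratio of the large to the small subunit median was 0.982 in the control and 1.03 in the deficient pool, so that the order of the medians was not the same on the 2 arrays. Without probe sets whose suffix marks sharing, 41 large and 18 small subunit genes remained, some of them on another probe set. Among these the large subunit median was the higher one on both arrays. It was 1314 against 1142 in the control pool and 1288 against 1089 in the other. This order is over fewer genes, so it is not a repeat of the comparison over all 76. Both subunits sat at a median of about the 85th percentile of genes in the control, 84.8 for the large and 85.1 for the small, and at 83.1 and 82.5 in the other pool. Signals of different probe sets also depend on their probes and the scale is not corrected for transcript length, so these medians describe the readings and do not order the genes by abundance. Together the 76 probe sets held 0.274% of all signal in the control and 0.262% in the deficient pool.

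**Figure D1:**
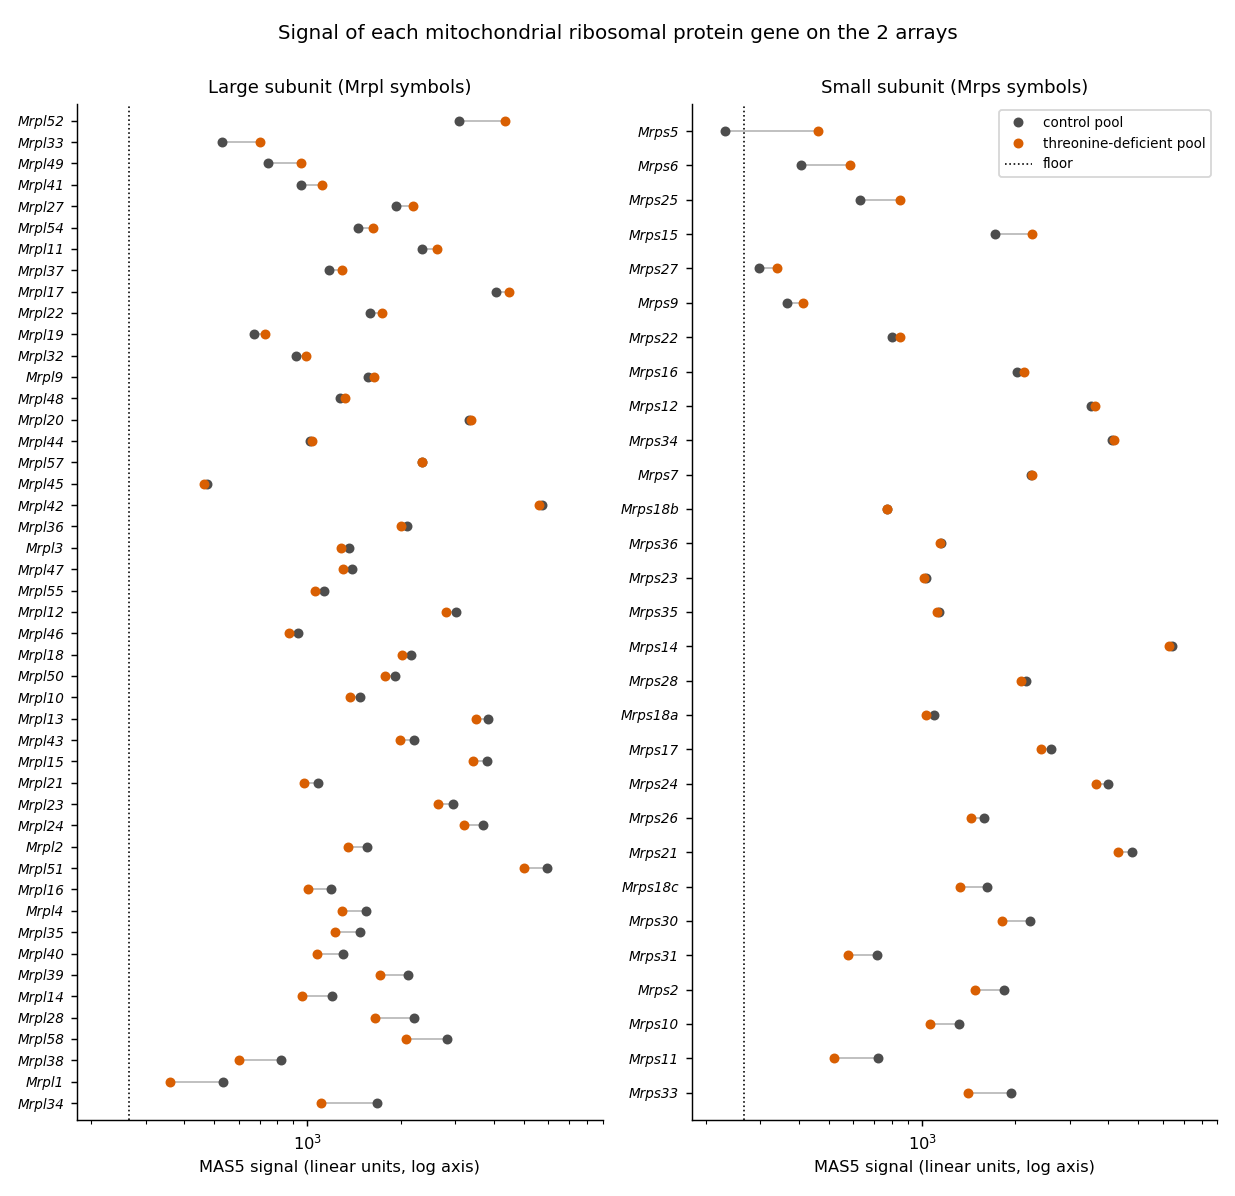
MAS5 signal (linear units on a log axis) of each gene in the control pool (grey) and the threonine-deficient pool (orange), 1 array each, with the Mrpl genes on the left and the Mrps genes on the right, ordered by log2 ratio; the dotted line is the floor of 264.9 units. Most pairs of points lie close together, and only Mrps5 has a point below the floor.

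The log2 ratios, threonine-deficient over control, were centred slightly below 0 in both subunits. The median was −0.10 for the large subunit, with quartiles of −0.22 and 0.08, and −0.02 for the small subunit, with quartiles of −0.15 and 0.07. The median over all genes above the floor was 0.00, with quartiles of −0.21 and 0.23. The ratio was negative for 31 of 47 large subunit genes and 18 of 29 small subunit genes, 66.0% and 62.1%, beside 49.9% of all genes. The large minus small difference of the medians was −0.08, and that of the means −0.06. The size of reading error to set beside this difference depends on which repeat readings it is taken from, with errors of different genes assumed independent and the error computed as for means. Taken from all pairs of probe sets of the members (0.37 per probe set, below), it was 0.09 for the difference. From the members' pairs of bright probe sets (0.32) it was 0.07, and from such pairs over the whole array (0.22) it was 0.05. As the error is that of means, it belongs beside the difference of the means, −0.06. In size this was below the first and second of these errors and above the third. No error was computed for the difference of the medians, and the quartile ranges of the subunits overlapped. Grouping by structure in place of symbol, with Mrps30 and Mrps18a in the large subunit and Mrps36 left out, gave medians of −0.10 over 49 genes and −0.02 over 26 genes.

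**Figure D2:**
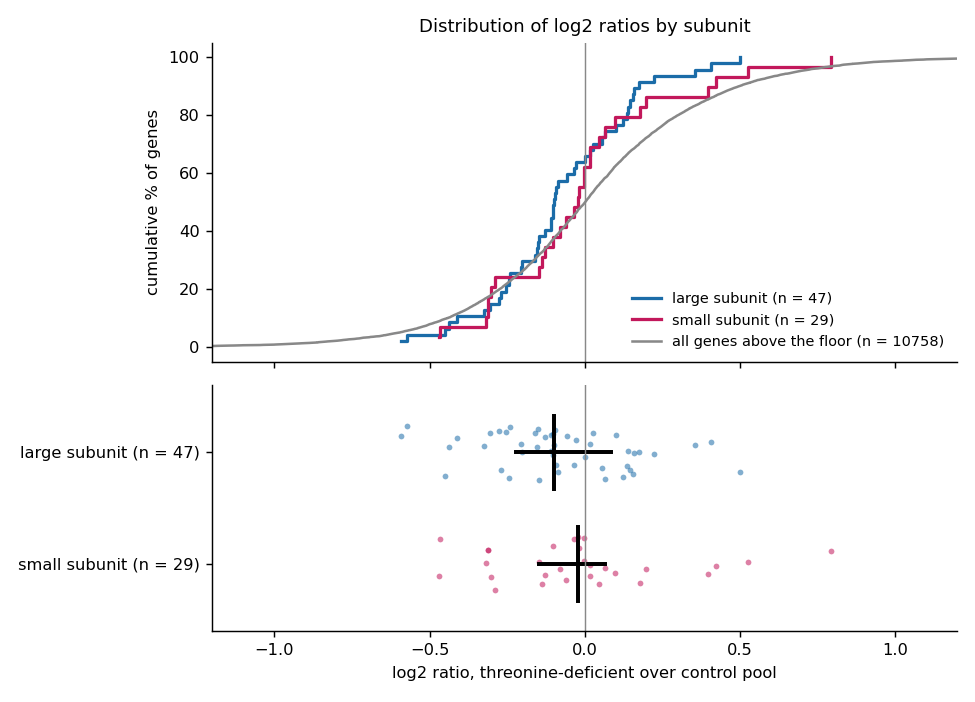
Upper panel, cumulative percent of genes against log2 ratio (threonine-deficient over control pool) for the large subunit (blue), the small subunit (pink) and all 10758 genes above the floor (grey, which runs on beyond the axis); lower panel, each gene as a point with the median (vertical bar) and quartiles (horizontal bar). The medians, −0.10 and −0.02, lie within the quartile range of the other subunit.

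Genes of like brightness showed part of the same shift. For each member the median log2 ratio of the 500 genes nearest in signal was taken, and the middle value of these local medians was −0.03 for both subunits. Against their local medians, 46 of 76 members were lower, 60.5% beside 49.9% of all genes, and the median deviation was −0.07 for the large and −0.02 for the small subunit. The local spread, the scaled median absolute deviation of those 500 genes, had a median of 0.28 over the members. Within 1 local spread of the local median lay 60 of the 76, with Mrps5 counted at its bound (78.9%, beside 68.2% of all genes), and Mrpl52 alone lay beyond 2 local spreads, which 6.31% of all genes did. Across the members, log2 ratio and mean log2 signal were related with Pearson's r at −0.17 and Spearman's rho at −0.12 over 76 genes of the same 2 arrays. The dimmest 26 members spanned log2 ratios from −0.57 to 0.79, the middle 25 from −0.59 to 0.40 and the brightest 25 from −0.44 to 0.50. Their medians were −0.01, −0.14 and −0.06 in that order.

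**Figure D3:**
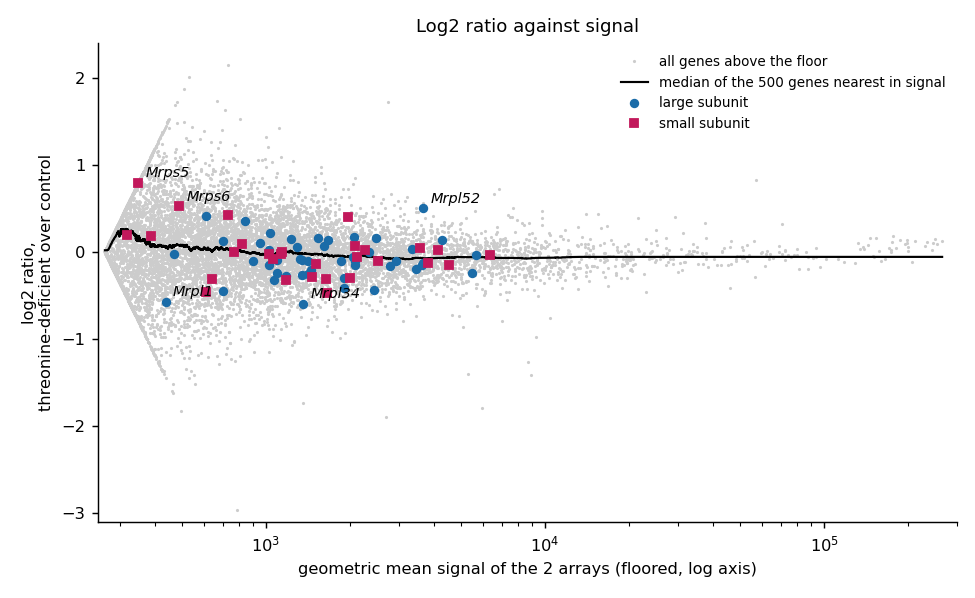
Log2 ratio (threonine-deficient over control pool) against the geometric mean signal of the 2 arrays, after flooring and on a log axis, for all genes above the floor (grey), large subunit genes (blue circles) and small subunit genes (pink squares); the black line is the median of the 500 genes nearest in signal. The members lie inside the cloud of genes of like signal, and Mrps5 sits on the edge that the floor draws.

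Among the large subunit genes with lower signal in the deficient pool, Mrpl34 had 1673 units in the control and 1109 in the deficient pool. This was 1.51-fold lower, a log2 ratio of −0.59 beside a local spread of 0.29, and its second probe set was below the floor. Mrpl34 is the counterpart of a small bacterial large subunit protein. Mrpl1, whose bacterial counterpart lies in the mobile L1 stalk where the used tRNA leaves, went from 533.9 to 359.3 (−0.57, local spread 0.50). A second reading above the floor had 328.9 and 454.8 units, a log2 ratio of 0.47 in the opposite direction. Mrpl38, a protein of the central protuberance, went from 820.9 to 601.4 (−0.45), and a dimmer probe set of it gave 0.25. Mrpl58, a peptidyl-tRNA hydrolase built into the large subunit, went from 2828 to 2086 (−0.44, local spread 0.21), and its second probe set, at the floor in the deficient pool, gave −0.14 as a bound. Mrpl28 went from 2203 to 1656 (−0.41), while 2 further probe sets gave 0.05 and −0.10. In each of these 5 genes the brightest probe set was lower, and in Mrpl1, Mrpl28 and Mrpl38 another reading went the other way.

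At the other end of the large subunit, Mrpl52, a protein particular to mitochondrial ribosomes, had 3085 units in the control and 4358 in the deficient pool. The log2 ratio was 0.50, where genes of like signal had a local spread of 0.19. Its other bright probe sets did not give that value: the pairs of signals were 2912 and 2649 (−0.14) in the first and 2331 and 2492 (0.10) in the second. Mrpl33, the counterpart of bacterial L33, went from 529.4 to 701.9 (0.41, local spread 0.40). Mrpl49 went from 743.0 to 950.2 (0.35), with −0.42 in its other probe set, and Mrpl41 from 955.6 to 1114 (0.22), with −0.01 in another. Mrpl27, the counterpart of bacterial L27, which reaches towards the peptidyl transferase centre, went from 1938 to 2189 (0.18). Mrpl33 and Mrpl27 were the members of this group with no second reading above the floor.

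In the small subunit, the highest value was that of Mrps5, the counterpart of bacterial S5, a protein tied to the accuracy of decoding. Its signal was 230.8 units in the control, below the floor, and 459.4 in the deficient pool, at least 1.73-fold higher. Its other probe sets gave 322.6 and 298.0 units (−0.11), above the floor on both arrays, and 228.5 and 402.5 (at least 0.60), while the remaining ones were below the floor. The local spread there was 0.81, but a ratio that is a lower bound cannot be placed within it, and the ratio of the signals without the floor was 0.99. Mrps6 went from 407.3 to 586.8 (0.53, local spread 0.50) and Mrps25 from 630.3 to 845.2 (0.42, local spread 0.36). The further probe sets of Mrps6 and Mrps25 were below the floor on both arrays. Mrps15 went from 1717 to 2262 (0.40, local spread 0.25), while its other probe set gave −0.11. The next highest, Mrps27, a pentatricopeptide repeat protein, had signals close to the floor, 296.1 and 339.4 (0.20), and Mrps9 had 364.9 and 413.0 (0.18).

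The lowest small subunit values were those of Mrps33 and Mrps11. Mrps33 went from 1939 to 1402 units (−0.47, local spread 0.26) and was read by 1 probe set. Mrps11, the counterpart of bacterial S11, went from 718.2 to 520.4 (−0.46, local spread 0.41). Mrps10 went from 1320 to 1058 (−0.32) and Mrps31 from 714.5 to 575.7 (−0.31). Mrps2, the counterpart of bacterial S2, went from 1837 to 1478 (−0.31, local spread 0.26) and had 789.4 and 462.2 units in its second probe set (−0.77). Mrps2 was the member of these 5 for which a second reading above the floor on both arrays went the same way. Genes at the middle of the order included Mrps14, with 6440 and 6286 units, and Mrps7, with 2246 and 2271.

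The genes Mrps18a, Mrps18b and Mrps18c are paralogs related to bacterial S18 whose products take different places in the ribosome. Mrps18c, whose product takes the place of S18, went from 1619 to 1326 units (−0.29, local spread 0.28). Mrps18b had 770.1 and 769.3 units (0.00), and Mrps18a, of the large subunit, had 1091 and 1031 (−0.08). Mrps30, whose product also lies in the large subunit, went from 2226 to 1806 (−0.30, local spread 0.24). Mrps36 had 1147 and 1145 units (0.00). Each of these 5 genes was read by 1 probe set.

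By origin, the 45 members with a bacterial counterpart had a median log2 ratio of −0.10, with 29 negative, and the 28 particular to mitochondria one of −0.03, with 17 negative. Within the large subunit by structure these medians were −0.10 over 29 genes and −0.04 over 19, and within the small subunit −0.05 over 16 and −0.02 over 9. The quartiles of the 2 classes, −0.20 and 0.07 against −0.25 and 0.11, overlapped. By place in the large subunit, the 4 genes of the stalk that recruits translation factors ranged from −0.11 for Mrpl10 and −0.10 for Mrpl12 to 0.15 for Mrpl11 and 0.16 for Mrpl54. At the exit of the peptide tunnel the new chain meets the inner membrane. The 5 genes assigned here to this exit ranged from −0.20 for Mrpl24 to 0.13 for Mrpl22. Among them Mrpl45, which contacts the membrane, was at −0.03. The 6 genes assigned here to the central protuberance ranged from −0.45 for Mrpl38 to 0.18 for Mrpl27. In none of these 3 groups did all members have the same sign.

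Repeat readings of the same gene on the same arrays gave a size of reading error. It covers probe and hybridisation noise only, and not differences between animals, pools or RNA preparations. Of the 76 genes, 42 had more than 1 probe set, and 37 further probe sets of 26 genes lay above the floor on both arrays. Their log2 ratios ran from −0.87 (Mrps23, 1142 and 622.7 units) to 0.70 (Mrpl21, 447.1 and 725.7 units), with 22 negative, 15 positive and a median of −0.09. Of these 37 readings, 16 had the sign of the gene's brightest probe set. Taking the brightest further probe set of each of the 25 genes with both readings above the floor on both arrays, the reading error of 1 probe set (SD, log2) came to 0.37, and the paired readings were related across genes with Pearson's r at −0.25 and Spearman's rho at −0.28. The same error over all 3245 genes with such a pair was 0.34. Their paired readings were also little related, with Pearson's r at 0.06 and Spearman's rho at 0.04. The sign was the same in 52.0% of them, beside 11 of the 25 members' pairs (44%). These pairs set the brightest probe set of a gene against a dimmer one, so the error is an average over both and not that of the brightest probe sets alone. The members' log2 ratios from their brightest probe sets had a standard deviation of 0.26 across genes.

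**Figure D4:**
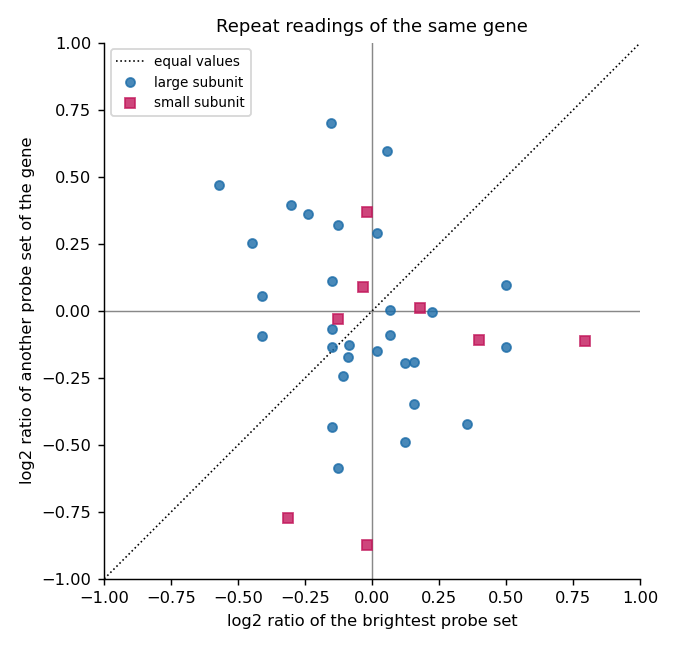
Log2 ratio of another probe set of a gene against that of its brightest probe set, for the 37 further probe sets above the floor on both arrays, large subunit in blue and small subunit in pink; the dotted line marks equal values. The points lie in all 4 quadrants, and 16 of the 37 lie where both readings have the same sign.

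Bright probe sets of a gene also differed in sign. With signals of at least 1000 units on both arrays there were 14 further probe sets of 10 members, and 8 of them had the sign of the brightest one. The error per probe set was 0.32 over those 10 genes, where 1112 genes of the whole array gave 0.22. With 1 such pair per gene, the sign was the same in 5 of the 10 members and in 55.8% of the 1112 genes. Mrpl13 had 3833 and 3507 units in its brightest probe set (−0.13), 1898 and 1264 in the next (−0.59) and 339.5 and 424.0 in a dim one (0.32). Mrpl15 was read by 5 probe sets above the floor, at −0.15, −0.43, 0.11, −0.07 and −0.14, of which 4 were lower in the deficient pool. Mrpl11 and Mrpl19 had positive values in the brightest probe set (0.15 and 0.12) and negative ones in both others. Mrpl44, an RNase III-like protein, had 0.02, −0.15 and 0.29, and Mrpl9 had 0.07, −0.09 and 0.00. Mrps23 had −0.02, −0.87 and 0.37. In 7 genes all readings had the same sign: Mrpl3, Mrpl47, Mrpl50, Mrps2 and Mrps24 were lower, and Mrpl48 and Mrps9 were higher. Mrpl3, Mrpl47, Mrpl48, Mrpl50 and Mrps24 were chosen after their values were seen.

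The other parts of the mitochondrial translation machinery were described in the same way. Of the ribosomal proteins with other names, Dap3, Ptcd3 and Chchd1 of the small and Gadd45gip1 of the large subunit were all above the floor, with log2 ratios from −0.23 for Chchd1 (3358 and 2854 units) to 0.00 for Gadd45gip1 (1595 and 1599). Mitochondrial translation factors had a median of −0.20 over 15 genes, 10 of them negative. Their lowest value was that of Tsfm, the nucleotide exchange factor of the mitochondrial elongation factor Tu, which had 871.8 units in the control and 390.3 in the deficient pool, 2.23-fold lower. Its second probe set was below the floor. Gfm2, which splits the ribosome after termination, went from 478.7 to 290.9 (−0.72), with 0.16 as a bound in another probe set, and Lrpprc, which stabilises mitochondrial mRNAs, went from 833.6 to 1173 (0.49). Tufm itself went from 1071 to 923.5 (−0.21).

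Ribosome assembly and rRNA factors had a median of −0.08 over 23 genes, 15 negative, close to that of the members as a whole (−0.08 over 76). The small subunit assembly factor Rbfa went from 1420 to 982.5 units (−0.53), and the rRNA methyltransferase partner Mterf4 (0.50) and the methyltransferase Mrm3 (0.49) were at the other end. None of these 23 differed 1.5-fold. Mitochondrial tRNA synthetases had a median of 0.04 over 12 genes, 5 negative, with the leucyl enzyme Lars2 going from 776.0 to 1182 (0.61, a bound of 0.31 in another probe set), the isoleucyl enzyme Iars2 at 0.31 (−0.02 in its other probe set) and Ears2 at 0.30 as a bound. Genes of mitochondrial transcription and DNA maintenance and their nuclear regulators had a median of −0.02 over 18 genes. Among them the nuclear receptor Esrra went from 937.3 to 546.3 units (−0.78, with 0.21 as a bound in another probe set), the coactivators Pprc1 and Ppargc1b had 0.54 and 0.51, and Tfam, which packages mitochondrial DNA, had −0.24.

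Beside the most similar large sets, the members were neither the lowest nor the tightest. Respiratory chain and ATP synthase subunits encoded in the nucleus had a median of −0.10 over 75 genes, 68.0% of them negative, and an interquartile range of 0.25, compared with −0.08, 64.5% and 0.29 for the members. They included values beyond any of the members, with Atp5md at −1.40, Atp5k at −0.76 and Ndufb1 at 0.93 as a bound. The further probe sets of Atp5k gave −0.17 and −0.35, within the range of the members. Cytosolic ribosomal proteins had a median of −0.03 over 41 genes, 56.1% of them negative, and an interquartile range of 0.12. Their median signal was 54203 units in the control, where the local spread is small, beside 1562 for the members. Rpl39 (1.04), Rps27 (−0.50) and Rpl37 (−0.28) were their largest values, all from signals below that median. In the control and deficient pools Rpl39 had 731.9 and 1501 units, Rps27 had 988.8 and 696.9, and Rpl37 had 8384 and 6920. No difference between these sets was tested, since there is 1 array per pool and genes are not replicates.

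**Figure D5:**
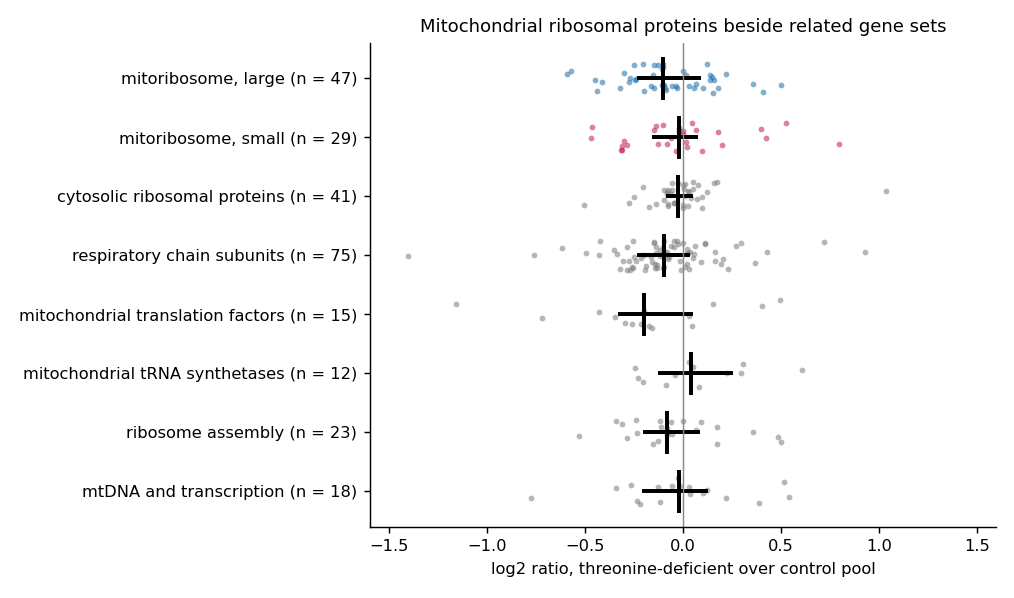
Log2 ratio (threonine-deficient over control pool) of each gene above the floor, by set, with the median as a vertical and the quartiles as a horizontal black bar; the mitochondrial ribosome is in blue (large subunit) and pink (small subunit) and the related sets in grey. The set medians lie between −0.20 for mitochondrial translation factors and 0.04 for mitochondrial tRNA synthetases, and the quartile ranges overlap.

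Promoters were examined because nuclear genes for mitochondrial proteins share known regulators, among them NRF1, the GA-binding protein GABPA and YY1. RefSeq promoter sequences of GRCm38.p6, 250 bases before to 50 after the start, were matched by gene identifier for 67 of the 76 genes. The 8-letter core GCGCATGC of the NRF1 site was found on either strand in 8 of these 67 (11.9%), against 3.05% of 27025 genes with a promoter in the table and 5.92% of those above the floor on the array. The GABPA core CCGGAAGT was found in 12 (17.9%, against 4.31% and 8.78%) and the YY1 core AAGATGGC in 12 (17.9%, against 3.19% and 5.29%). At least 1 of the 3 was found in 29, or 43.3%, against 9.91% and 18.6%. By subunit this was 19 of 41 large and 10 of 26 small subunit genes. The median log2 ratio was 0.00 in the 29 with a match and −0.10 in the 38 without. The signals of the regulators were 542.3 and 589.9 for Nrf1 (0.12), 1668 and 1640 for Gabpa (−0.02) and 4478 and 3525 for Yy1 (−0.35). Most of the YY1 matches lay after the start, from base 11 in Mrps18a to base 36 in Mrps24, and the others before it. A match is a stretch of letters and not a measured binding site.

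The 150 bases before the start are given for the members at both ends of the log2 ratios and for 3 that show the cores, 5′ to 3′ on the strand of the gene, with any core in capitals. Mrpl34 (chr8:71464776-71464925, plus strand) and Mrps5 (chr2:127587276-127587425, plus strand), the lowest and highest members, hold none of the 3 cores in the window searched. Mrpl32 (chr13:14613038-14613187, minus strand; log2 ratio 0.10) holds the NRF1 core 4 times, counting both strands, with 2 of the matches overlapping, and a YY1 core that starts 242 bases before the start, outside the stretch shown. Mrpl9 (chr3:94443186-94443335, plus strand; 0.07) holds it as an overlapping pair on opposite strands, and Mrpl51 (chr6:125192050-125192199, plus strand; −0.24) holds the GABPA core.
Mrpl34: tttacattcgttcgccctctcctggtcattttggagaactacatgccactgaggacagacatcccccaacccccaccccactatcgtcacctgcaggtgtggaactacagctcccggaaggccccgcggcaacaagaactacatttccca
Mrps5: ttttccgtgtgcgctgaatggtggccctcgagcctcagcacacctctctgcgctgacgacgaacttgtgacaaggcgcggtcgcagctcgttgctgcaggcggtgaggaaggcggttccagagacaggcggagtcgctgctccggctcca
Mrpl32: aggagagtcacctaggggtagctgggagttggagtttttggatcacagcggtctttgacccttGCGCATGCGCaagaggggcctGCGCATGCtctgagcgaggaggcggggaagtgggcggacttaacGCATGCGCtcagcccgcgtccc
Mrpl9: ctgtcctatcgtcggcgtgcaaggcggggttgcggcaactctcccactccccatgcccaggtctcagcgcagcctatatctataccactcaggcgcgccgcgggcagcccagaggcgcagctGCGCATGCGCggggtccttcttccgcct
Mrpl51: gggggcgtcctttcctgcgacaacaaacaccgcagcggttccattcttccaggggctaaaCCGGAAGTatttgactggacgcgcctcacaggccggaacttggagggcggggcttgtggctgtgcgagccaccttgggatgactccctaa

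Many of the genes start head to head with a neighbour. With starts at most 1000 bases apart on opposite strands, 23 of 67 members (34.3%) had such a protein-coding partner, against 8.48% of 17491 protein-coding genes with a promoter in the table and 12.7% of those above the floor. The partners included the mitochondrial helicase gene Twnk (Mrpl43), the seryl-tRNA synthetase gene Sars2 (Mrps12), the complex I subunit gene Ndufb5 (Mrpl47), the proteasome gene Psma2 (Mrpl32) and the ribosomal protein gene Fau (Mrpl49). In 14 of the 23 cases the partner was also above the floor, and in 8 of these the log2 ratios of member and partner had the same sign. Mrpl14 and Tmem63b were both lower (−0.32 and −0.72), as were Mrpl40 and Hira (both −0.28). Mrps27 and Ptcd2, which encodes another pentatricopeptide repeat protein of mitochondria, were both higher (0.20 and 0.79). Mrpl2 (−0.20) and Klc4 (0.38) went opposite ways, as did Mrpl49 (0.35) and Fau (−0.03).

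A large and a small subunit gene formed 1 of these pairs and account for 2 of the 14 cases, since each is the other's partner. The starts of Mrpl46 (minus strand) and Mrps11 (plus strand) are 42 bases apart on chromosome 7, and the 41 bases between them, chr7:78783090-78783130, are shown on the plus strand because they lie before both starts. In the control and deficient pools Mrpl46 had 933.8 and 869.8 units (−0.10) and Mrps11 had 718.2 and 520.4 (−0.46). The local spreads were 0.34 and 0.41.
Mrpl46 to Mrps11: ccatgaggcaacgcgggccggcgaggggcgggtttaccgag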

How the data were processed

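Pancreas RNA was hybridised to Affymetrix mouse whole-genome expression arrays, 1 pool and 1 array per group. The deposited values are probe set intensities on a linear scale, made with MAS5 per the submitters' processing notes; the version, and whether detection calls were used, are not given in the sources used here. Of 45101 probe sets, 34945 carried 1 gene symbol on the platform annotation and were used, 932 carried several, 9160 none, and 64 were controls.

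The brightest probe set represented each gene, by mean log2 signal. Signals below 264.9 were raised to that value and log2 ratios taken as threonine-deficient over control. With 1 array per group no test was run, and 2 arrays limit the precision. Alternatives covered the floor, scaling, probe set choice and subunit assignment. Scripts used Python 3.11.15, pandas 2.3.3 and scipy 1.17.1, and were tested on simulated data.

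Genes were named if 1.5-fold apart, among the 5 highest or lowest of a subunit, an S18 paralog, Mrps30 or Mrps36, read by several other probe sets, in a described structural group, or among the 3 largest values of a related list; Mrps7, Mrps14, Tufm, Tfam, the regulators searched for in promoters and the head-to-head pairs were added for description after their values were seen. The members and lists were chosen with earlier results of these data known. Duct, endothelial, immune and stromal marker lists had 0, 0, 1 and 1 genes lower and 2, 4, 2 and 1 higher in the threonine-deficient pool, and Cftr, Krt7, Cd3e, Col1a1 and Myh11 were below the floor. Protein sequences were not used here.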

Additional observations from a re-analysis of the deposited data

How the results depend on the processing

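Over 9 alternative settings the difference of the subunit medians stayed negative, from −0.08 to −0.02. Centring cannot change this difference. Leaving out the floor or lowering it to percentile 50 changed only the value of Mrps5 and gave the same −0.08, so these settings were no check on it. The −0.02 came from the setting without shared probe sets, which kept 41 large and 18 small subunit genes. The reading error, computed for a difference of means, was 0.05 to 0.09, depending on the repeat readings used. The large subunit median ran from −0.10 to −0.07 and the small from −0.07 to −0.01. No member reached 2-fold in any of the 8 settings that recount members. The highest log2 ratio among them was 0.99, for Mrps5, without the floor or with it at percentile 50. The count at least 1.5-fold higher, 1 as reported, was 0 with the floor at percentile 75, 0 with the floor added to both signals as a pseudocount, and 3 without probe sets whose suffix marks sharing between transcripts or genes (Mrps5, Mrpl21 and Mrpl48). The count at least 1.5-fold lower was 0 after centring on the median and 0 with the pseudocount. Without the shared probe sets 41 large and 18 small subunit genes remained. Their median signal was 1314 in the control and 1288 in the deficient pool for the large subunit, and 1142 and 1089 for the small. The large subunit median was thus higher on both arrays among the genes kept. Alternative values were taken for 33 of the named members, which left out Mrpl21, Mrpl48 and Mrpl51 among others. Without shared probe sets these went from −0.16 to 0.70, from 0.05 to 0.60 and from −0.24 to 0.36. Of the 254 alternative values of the 33, 247 moved by less than the reading error over all member pairs, 0.37. Many of the 247 could hardly move, since centring shifts all values alike and the floor leaves brighter genes unchanged. A change of sign within 0.37 also counted among the 247. As the median over probe sets, Mrpl11 went from 0.15 to −0.19 and Mrpl19 from 0.12 to −0.19. The other 7 belonged to Mrpl1, Mrpl28, Mrpl38, Mrpl49 and Mrpl52; Mrpl52, at 0.50 as reported, was 0.10 as the median over its probe sets and −0.14 without shared ones. Beyond what the settings themselves change, the cause was not tested. No paired analysis was possible because each group is 1 array. Mrps27, Mrps5, Mrps9 and Mrpl1 had the lowest mean signals, and with the floor at percentile 75 Mrpl1 went from −0.57 to −0.06.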
